A study of Homo sapiens with 17 samples.

Results

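The heterogeneous nuclear ribonucleoprotein (hnRNP) genes described here are HNRNPA0, HNRNPA1, HNRNPA2B1, HNRNPC, HNRNPD, HNRNPF, HNRNPH1, HNRNPK, HNRNPM and HNRNPU. They were taken by name from 1 family of nuclear RNA-binding proteins. The membership rule held no measured value, but the members were chosen with earlier results of these data known. Each gene is represented at each time point by its transcript with the highest summed count. The 10 genes passed the count minimum at both time points, among 9016 tested genes at 36 h and 10896 at 72 h.

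The data are ribosome profiling and RNA-seq of HEK293 cells, a human embryonic kidney line, after electroporation of a Cas9 ribonucleoprotein. Cas9, or the catalytically dead dCas9 as the control, carried the sgIntron guide to intron 12 of JAK2, with 300 pmol of protein and 300 pmol of guide in the labels of all samples. The 8 footprint libraries are, at 36 h, from 2 Cas9 plates (a, c) and 2 dCas9 plates (d, e), and at 72 h replicates e and f of each nuclease. The 9 mRNA libraries, made from total RNA after removal of ribosomal RNA, are, at 36 h, those of 3 Cas9 plates (a, b, c) and 2 dCas9 plates (d, e), and at 72 h replicates a and b of each nuclease. According to the methods, 4 small electroporations were pooled on 1 plate as a replicate, and guides were synthetic at 36 h and transcribed in vitro at 72 h, so time, guide source, aligner and annotation cannot be told apart.

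hnRNPs coat nascent transcripts in the nucleus, where they take part in splicing, packaging and export of mRNA, and several shuttle to the cytoplasm and act on mRNA stability and translation. Many of their transcripts are regulated by splicing to forms that are not translated. The ratio of ribosome footprints to mRNA of a gene, its translational efficiency, compares how many ribosomes are engaged with how much transcript is present.

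Total counts over the kept transcripts were 25095505 to 42825667 in mRNA libraries, but 689636 to 4868580 in footprint libraries at 36 h and 3183555 to 8864461 at 72 h. Levels are given as CPM, counts scaled to the total over the tested genes after TMM normalisation. JAK2 had at most 4.04 footprint CPM and at most 11.1 mRNA CPM in any library and was not tested, and since the guide targets an intron its level is no check of the labels. Of the 6 markers expected in HEK293 cells, VIM, KRT18 and LIN28B were well detected. They had 599 to 1069, 51.1 to 62.0 and 43.1 to 65.4 CPM of mRNA. KRT8 (3.97 to 8.67 CPM) and NEFM (2.65 to 14.5 CPM) were low, and PAX2 was at most 0.32 CPM. Of the markers of other cells, COL1A1 had 3.49 to 10.2 CPM, and PTPRC, ALB, HBG1 and CDH5 were below 1 CPM in every mRNA library.

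Counting of some hnRNP genes is limited by copies of their sequence elsewhere in the genome. Windows of 28 bases, about the length of a footprint, and of 50 bases were taken from each coding region and searched for exactly on both strands of GRCh38. For HNRNPA1, on chromosome 12, 97.0% of the 28-base windows and 93.7% of the 50-base windows also occurred at another locus. For HNRNPC the shares were 84.2% and 58.2%, and for HNRNPK 70.2% and 28.6%. In contrast, HNRNPA0 and HNRNPA2B1 had no window at another locus, HNRNPM had 0.4% and 0.0%, and the other 4 genes had 1.6 to 15.6% of the 28-base windows. The deposited counts do not show how reads that fit several loci were treated, so the values of HNRNPA1, HNRNPC and HNRNPK are uncertain.

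**Figure D1:**
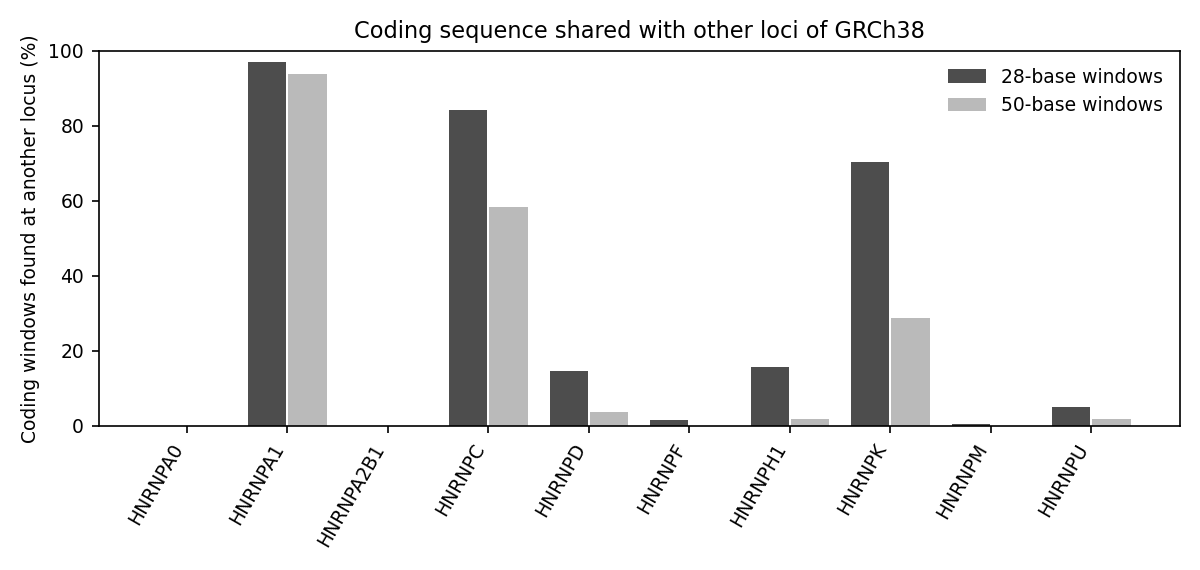
Share of coding windows of each hnRNP gene, in percent (vertical axis), that occur exactly at another locus of GRCh38, for windows of 28 bases (dark bars) and 50 bases (light bars). HNRNPA1 (97.0% of 28-base windows), HNRNPC (84.2%) and HNRNPK (70.2%) stand well above the other 7 genes, which reach at most 15.6%.

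HNRNPA1L2, a near-identical intronless copy of HNRNPA1, is described because most windows of HNRNPA1 also occur at such copies, and it was named after its values were seen. The mRNA of HNRNPA1L2 was counted at 383 and 447 CPM in Cas9 libraries and at 568 and 629 CPM in dCas9 libraries at 72 h, so its groups differed in the same direction as those of HNRNPA1 below. Counts assigned to HNRNPCL1, a copy of HNRNPC with 94.7% identity over the coding region, were at most 33.1 CPM of mRNA but 114 to 141 CPM of footprints at 72 h, and this copy too was named after its values were seen. The part of shared reads in these values was not tested.

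Levels were compared between genes per kilobase of the counted coding part. At 36 h, mRNA of HNRNPD was lowest, at 73.5 to 98.0 CPM per kilobase over the 5 libraries, followed by HNRNPA0 at 137 to 161 and HNRNPM at 219 to 255.2. HNRNPF (559 to 618) and HNRNPH1 (621 to 680.2) came next, and the ranges of HNRNPH1 and HNRNPU (668 to 746) overlapped. So did those of HNRNPA2B1 (743 to 896) and HNRNPK (758 to 852), and those of HNRNPC (1207 to 1350.5) and HNRNPA1 (1337 to 1475), the highest. Footprint levels at 36 h were closer together, from HNRNPD at 401 to 558 CPM per kilobase to HNRNPA2B1 at 1312 to 1591. HNRNPA0, low in mRNA, had 622 to 849 CPM per kilobase of footprints, and its group means lay between those of HNRNPH1 and HNRNPF. At 72 h the mRNA of HNRNPA2B1 was counted at 163 to 467 CPM per kilobase, beside 1472 to 1595 in footprints. The 10 genes together held 0.784 to 0.843% of the mRNA counts and 0.992 to 1.08% of the footprint counts over tested genes at 36 h. At 72 h their share was 0.5795 and 0.621% in Cas9 and 0.697 and 0.772% in dCas9 mRNA libraries, whereas it was 1.14 to 1.20% in all 4 footprint libraries.

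**Figure D2:**
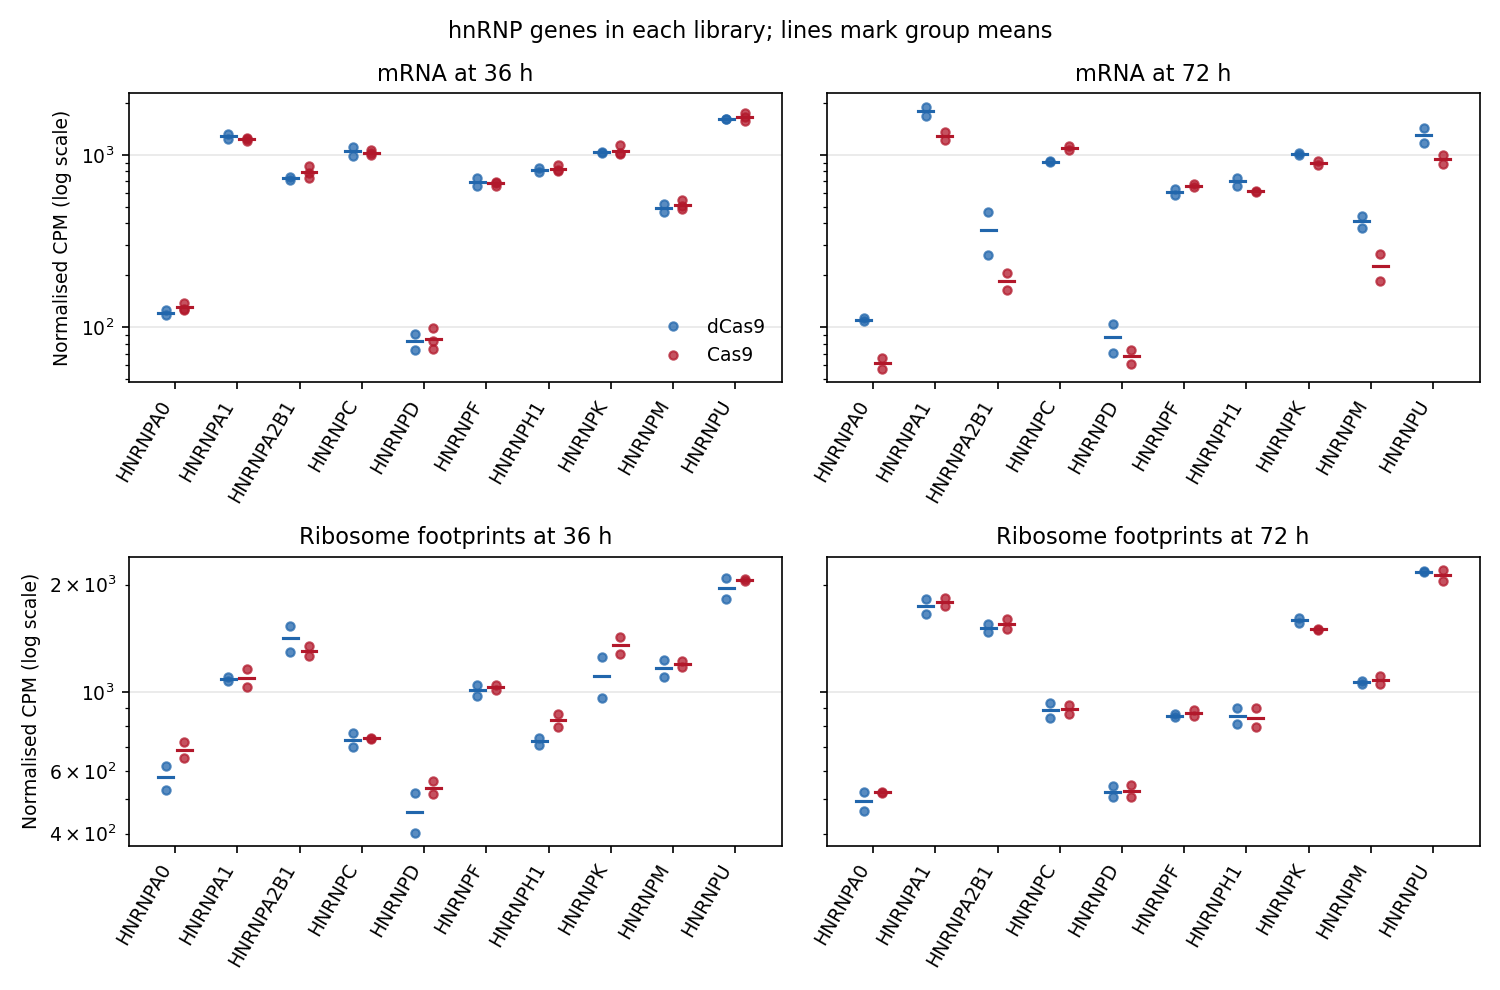
Normalised CPM of the hnRNP genes (vertical axis, log scale) in each library, as points, with group means as lines, for mRNA (upper row) and ribosome footprints (lower row) at 36 h and 72 h, in dCas9 (blue) and Cas9 (red) cells. At 72 h the mRNA points of HNRNPA0, HNRNPA1, HNRNPA2B1, HNRNPM and HNRNPU are lower in both Cas9 libraries than in both dCas9 libraries, while the footprint points of these genes overlap.

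At 36 h, neither transcripts nor footprints of any hnRNP gene passed the threshold, a false discovery rate (FDR) of 0.1 in edgeR's quasi-likelihood test over all tested genes. For mRNA, 0 of the 10 members passed, where 0.0222% of all tested genes did. HNRNPU, a scaffold protein of the nuclear matrix, had 1575, 1654 and 1760.0 CPM in Cas9 and 1621 and 1606 CPM in dCas9 libraries. HNRNPA2B1, which acts in splicing and mRNA transport, had 783, 737 and 863 CPM against 745 and 716 CPM. HNRNPA0, a protein that binds AU-rich elements, had 138, 125 and 127 CPM against 125 and 117 CPM. HNRNPA1 had 1203, 1247 and 1243 CPM against 1239 and 1328 CPM. The groups of all 10 members overlapped at 36 h, where 8.54% of all tested genes lay higher and 8.29% lower in every Cas9 library, and their mRNA log2 fold changes, Cas9 over dCas9, ran from -0.06 to 0.12 with a median of 0.040, beside a median of 0.0016 over all tested genes.

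For footprints at 36 h, 0 of the 10 members passed and 0% of all tested genes did. By edgeR, 188 of the 9016 genes had an unadjusted p under 0.05, none of them a member, and DESeq2 called 0 genes, with 107 at an unadjusted p under 0.05. HNRNPK, which binds C-rich RNA, had 1428 and 1276 footprint CPM in Cas9 and 1251 and 964 CPM in dCas9 libraries, the difference with the smallest p among the members (log2 fold change 0.28 ± 0.14 SE, edgeR adjusted p = 0.999). HNRNPA0 had 652 and 726 CPM against 532 and 621 CPM, and HNRNPH1, which binds G-rich RNA, 797 and 866 CPM against 742 and 711 CPM. These 3 genes lay higher in both Cas9 libraries than in both dCas9 libraries, as did 15.8% of all tested genes. The dCas9 replicate e, from which the lower HNRNPK value comes, was the shallowest library. Without dCas9 replicate d, which left 1 dCas9 library, the log2 fold change of HNRNPK was 0.48, against 0.28 with all libraries.

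At 72 h, mRNA of HNRNPA0, HNRNPA1, HNRNPA2B1, HNRNPM and HNRNPU fell in Cas9 cells. These were 5 of the 10 members, against 2.66% of all tested genes called decreased and 2.69% called in either direction, and 0 members were called increased (background 0.0275%). The median over the members was -0.42 on the log2 scale, beside 0.019 over all tested genes.

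HNRNPA0 had 57.0 and 66.4 CPM of mRNA in Cas9 and 108 and 113 CPM in dCas9 libraries. Its log2 fold change was -0.84 ± 0.13 (SE, n = 2 and 2 libraries, edgeR adjusted p = 0.0243). Both Cas9 values lay well below both dCas9 values. The gene lies at chr5:137745651-137754363 on the minus strand of GRCh38, and its coding region has a GC content of 64.5%, higher than 91.3% of the genes tested at 72 h.

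HNRNPA2B1 had 163 and 206 CPM of mRNA in Cas9 and 261 and 468 CPM in dCas9 libraries. Its log2 fold change of -0.98 ± 0.22 (edgeR adjusted p = 0.0636) was the largest among the members. The dCas9 libraries a and b differed from each other more than for any other called member. Without dCas9 replicate b, which left 1 dCas9 library, the log2 fold change was smaller, at -0.49. The gene lies at chr7:26171151-26201529 on the minus strand, with a coding GC content of 44.9%, and 25.4% of the tested genes had a lower one.

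HNRNPM, a splicing regulator, had 186 and 264 CPM of mRNA in Cas9 and 377 and 443 CPM in dCas9 libraries. Its log2 fold change was -0.87 ± 0.16 (edgeR adjusted p = 0.0281). The groups did not overlap, and the gene lies at chr19:8444767-8489114 on the plus strand.

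HNRNPA1, a splicing repressor that also shuttles to the cytoplasm, had 1217 and 1357 CPM of mRNA in Cas9 and 1676 and 1905 CPM in dCas9 libraries, a log2 fold change of -0.48 ± 0.11 (edgeR adjusted p = 0.0711). HNRNPU had 879.6 and 1001 CPM against 1176 and 1432 CPM, a log2 fold change of -0.47 ± 0.12 (adjusted p = 0.0961). For both genes the Cas9 values were lower than the dCas9 values in all pairs of libraries, and the changes were smaller than those of HNRNPA0, HNRNPA2B1 and HNRNPM. HNRNPA1 lies at chr12:54280193-54287088 on the plus strand and HNRNPU at chr1:244840638-244864560 on the minus strand.

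The other 5 members did not pass the threshold at 72 h. HNRNPC, which binds U-rich stretches of nascent transcripts, had 1121 and 1068 CPM of mRNA in Cas9 and 909 and 917 CPM in dCas9 libraries (log2 fold change 0.26 ± 0.10, adjusted p = 0.275), and HNRNPF, a paralog of HNRNPH1, had 674 and 652 CPM against 634 and 587 CPM (0.12 ± 0.11, adjusted p = 0.612). In these 2 genes both Cas9 values lay above both dCas9 values. HNRNPD, which binds AU-rich elements and acts on mRNA decay, had 61.3 and 73.9 CPM against 70.7 and 104 CPM, and its groups overlapped (-0.37 ± 0.18, adjusted p = 0.352). HNRNPH1 had 606 and 619 CPM against 663 and 738 CPM (-0.19 ± 0.11, adjusted p = 0.424), and HNRNPK had 878 and 926 CPM against 1026 and 1003 CPM (-0.17 ± 0.10, adjusted p = 0.447). Counting only whether groups overlap, 7 members were lower in both Cas9 libraries, where 25.1% of all tested genes were, and 2 were higher, where 24.5% were.

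**Figure D3:**
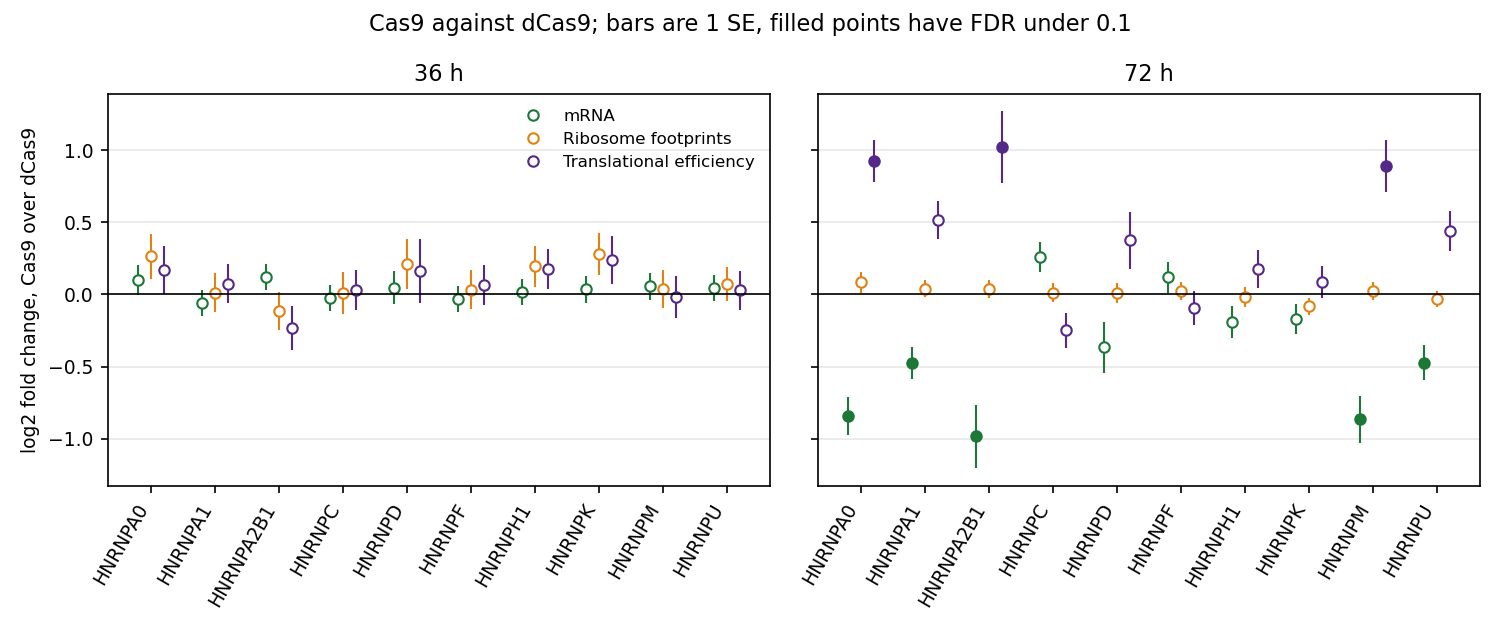
Log2 fold change of each hnRNP gene, Cas9 over dCas9 (vertical axis), in mRNA (green), ribosome footprints (orange) and translational efficiency (purple) at 36 h and 72 h, with bars of 1 SE and filled points where the FDR is under 0.1. At 72 h the mRNA values of HNRNPA0 (-0.84), HNRNPA2B1 (-0.98) and HNRNPM (-0.87) are lowest and their efficiency values highest, while footprint values of all 10 genes lie between -0.08 and 0.08.

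Each listed transcript of a called gene gave nearly the same mRNA difference at 72 h, and reads that transcripts share are counted on each of them. The log2 ratio of mean CPM, Cas9 over dCas9, ran from -0.49 to -0.48 over 4 listed transcripts of HNRNPA1, from -0.99 to -0.92 over 3 of HNRNPA2B1, from -0.87 to -0.85 over 2 of HNRNPM, and was -0.47 for both of HNRNPU. HNRNPA0 had 1 listed transcript. HNRNPC had 15 listed transcripts with 8 distinct sets of counts, all between 0.25 and 0.26.

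The call for mRNA at 72 h rested on Cas9 replicate a. Without that library 0 members passed, and 5 of all tested genes did, while log2 fold changes of the 5 genes remained below 0, from -0.83 for HNRNPA2B1 to -0.38 for HNRNPU. Across all genes tested at 72 h, the mRNA log2 fold change was lower for genes of higher coding GC content (Spearman's rho = -0.415 over 10896 genes, which share the same libraries). After a smooth trend on GC content was removed from each library, the 5 genes were again called decreased, with log2 fold changes of -0.75 for HNRNPA0, -0.48 for HNRNPA1, -1.03 for HNRNPA2B1, -0.78 for HNRNPM and -0.45 for HNRNPU, and the members split into 7 decreased and 2 increased (HNRNPC and HNRNPF). That fit called 2685 of 10896 genes, 1432 decreased and 1253 increased, against 290 decreased and 3 increased in the main test. With DESeq2 size factors in edgeR, HNRNPA2B1 and HNRNPU no longer passed. Without dCas9 replicate b, which left 1 dCas9 library, the median log2 fold change of the members was -0.25, against -0.42 with all libraries.

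In ribosome footprints at 72 h, 0 of the 10 members passed the threshold, where 0.0367% of all tested genes did, 0.0275% as increased and 0.00918% as decreased. HNRNPA0 had 522 and 524 footprint CPM in Cas9 and 522 and 464 CPM in dCas9 libraries, HNRNPA2B1 had 1598 and 1506 CPM against 1548 and 1474 CPM, and HNRNPM had 1110.2 and 1054 CPM against 1074 and 1055 CPM. Their log2 fold changes were 0.085 ± 0.071, 0.038 ± 0.060 and 0.023 ± 0.062. HNRNPA1 had 1837 and 1740.1 CPM against 1822 and 1656 CPM, and HNRNPU had 2049 and 2196 CPM against 2180.1 and 2163 CPM. The groups of these 5 genes overlapped. HNRNPC had 868 and 921 CPM against 928 and 847 CPM, HNRNPD 507 and 548 CPM against 544 and 506 CPM, and HNRNPF 856 and 889 CPM against 865 and 852 CPM. These groups overlapped as well, and the 10 members ran from -0.08 to 0.08 with a median of 0.018. HNRNPK was lowest, with 1494 and 1504 CPM against 1609 and 1564 CPM, and was the only member with both Cas9 values below both dCas9 values, as were 14.5% of all tested genes, while 17.4% and no member lay higher (log2 fold change -0.08 ± 0.06, adjusted p = 0.9998).

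The footprint-to-mRNA ratio was higher in Cas9 cells at 72 h for 3 members, HNRNPA0, HNRNPA2B1 and HNRNPM, where 0.78% of all tested genes were called increased and 0.798% in either direction. The ratio divides footprint CPM by mRNA CPM, using the mRNA library of the same lysate at 36 h and the geometric mean of the group's mRNA libraries at 72 h. For HNRNPA0 it was 8.49 and 8.52 in Cas9 and 4.73 and 4.21 in dCas9 libraries, a difference of 0.93 ± 0.14 on the log2 scale (edgeR interaction test, adjusted p = 0.0177). For HNRNPM it was 5.01 and 4.76 against 2.63 and 2.58 (0.89 ± 0.18, adjusted p = 0.0373). For HNRNPA2B1 it was 8.72 and 8.22 against 4.43 and 4.22 (1.02 ± 0.25, adjusted p = 0.0975). Both ratios of a group at 72 h share 1 mRNA mean, so their spread is that of the footprints alone and leaves out the spread of the mRNA, such as 261 and 468 CPM of HNRNPA2B1 in dCas9 libraries. These calls were lost without any 1 of the 4 footprint libraries, when 0 members passed, and 1 member, HNRNPA0, passed without Cas9 mRNA replicate a. Over all 8 libraries left out in turn, the log2 differences ran from 0.82 to 1.05 for HNRNPA0, from 0.66 to 1.17 for HNRNPM and from 0.53 to 1.38 for HNRNPA2B1. DESeq2 called HNRNPA0 and HNRNPM but not HNRNPA2B1. The interaction test takes in the same 72 h mRNA libraries as the mRNA test. Calls of a higher ratio are therefore not independent of the lower mRNA of these 3 genes.

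HNRNPA1 came just short of the threshold in this test, with ratios of 1.43 and 1.35 in Cas9 and 1.02 and 0.927 in dCas9 libraries (0.52 ± 0.13, adjusted p = 0.1004). HNRNPU had 2.18 and 2.34 against 1.68 and 1.67 (0.44 ± 0.14, adjusted p = 0.227). HNRNPA1 passed in 7 and HNRNPU in 4 of the 11 alternative fits with all libraries, both of them with the replicate letter as a block. HNRNPC had 0.793 and 0.842 against 1.02 and 0.928 and was one of the 2 members, with HNRNPF, whose ratio had a log2 change below 0 (-0.25 ± 0.12, adjusted p = 0.453). For translational efficiency at 36 h, 0 of the 10 members and 0% of all tested genes passed, and by edgeR no member had an unadjusted p under 0.05. The DESeq2 fit of this comparison also called 0 members.

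**Figure D4:**
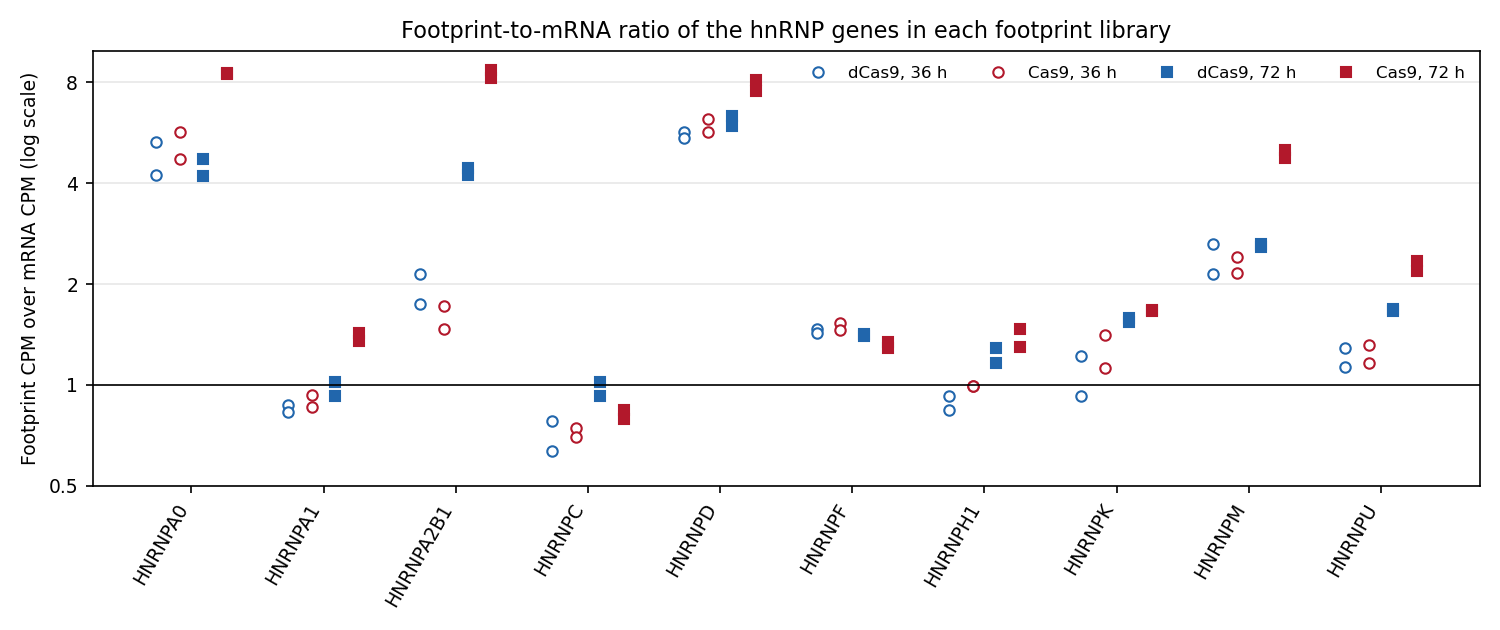
Footprint CPM over mRNA CPM (vertical axis, log scale) of the hnRNP genes in each of the 8 footprint libraries, for dCas9 (blue) and Cas9 (red) at 36 h (open circles) and 72 h (filled squares). HNRNPA0 and HNRNPD lie above 4 in every library, and the Cas9 squares of HNRNPA0, HNRNPA2B1, HNRNPD and HNRNPM lie above 4.7.

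Irrespective of the nuclease, the members differed widely in this ratio. HNRNPD had ratios of 5.45 to 8.14 and HNRNPA0 of 4.21 to 8.52, above at least 97.99% of the tested genes in all 8 libraries. HNRNPC had 0.633 to 1.02 and lay between the 35.4th and the 60.4th percentile. The medians over all tested genes were 0.849 to 0.885. Of the 8970 genes tested at both times, the 897 with the highest ratio in dCas9 cells at 36 h held 4 members, HNRNPA0, HNRNPA2B1, HNRNPD and HNRNPM. Of these, HNRNPA0, HNRNPA2B1 and HNRNPM had the lowest mRNA log2 fold changes of the members at 72 h, in other libraries, and HNRNPD did not pass the threshold. Over these 897 genes, 8.81% were called decreased in mRNA at 72 h, against 3.11% of all 8970. Spearman's rho between the 36 h ratio and the 72 h mRNA change was -0.515 over the 10 members and -0.181 over the 8970 genes, which share their libraries and are not independent. The value over the members rests on only 10 genes, and its difference from the value over all genes was not tested.

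The difference between the time points was itself tested. For mRNA, the Cas9 change was lower at 72 h than at 36 h for 3 members, HNRNPA0, HNRNPA2B1 and HNRNPM, where 0.702% of all tested genes were called so. The differences were -0.95 ± 0.15 (edgeR interaction test, adjusted p = 0.0273), -1.11 ± 0.26 (adjusted p = 0.0948) and -0.93 ± 0.19 (adjusted p = 0.0502). For HNRNPA1 (-0.42, adjusted p = 0.211) and HNRNPU (-0.52, adjusted p = 0.161), which fell at 72 h, the difference from 36 h did not pass. In footprints 0 of the 10 members differed between the time points (background 0%), and by edgeR no member had an unadjusted p under 0.05. By leaving out each library in turn, 0 to 5 members were called in mRNA, and 0 passed without Cas9 replicate a or c or dCas9 replicate e of 36 h, or without Cas9 replicate a of 72 h. Without dCas9 footprint replicate d of 36 h, 1 dCas9 footprint library of that time was left. The footprint difference of HNRNPK was then -0.57, against -0.35 with all libraries.

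Since 4 of the 5 members that fell have a promoter entry in RefSeq, the 150 bases before each start are printed from GRCh38.p14, 5′ to 3′ on the strand of the gene, to let the regions be compared. Capitals mark a CCAAT box (CCAAT or ATTGG) or a GC box (GGGCGG or CCGCCC), read on both strands.
HNRNPA0, chr5:137754364-137754513, minus strand: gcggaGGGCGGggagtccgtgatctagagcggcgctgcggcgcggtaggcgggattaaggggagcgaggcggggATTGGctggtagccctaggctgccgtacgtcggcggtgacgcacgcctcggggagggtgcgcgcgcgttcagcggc
HNRNPA2B1, chr7:26200747-26200896, minus strand: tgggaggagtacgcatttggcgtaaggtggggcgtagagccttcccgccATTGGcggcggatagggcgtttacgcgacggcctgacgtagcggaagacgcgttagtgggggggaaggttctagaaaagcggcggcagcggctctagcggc
HNRNPM, chr19:8444825-8444974, plus strand: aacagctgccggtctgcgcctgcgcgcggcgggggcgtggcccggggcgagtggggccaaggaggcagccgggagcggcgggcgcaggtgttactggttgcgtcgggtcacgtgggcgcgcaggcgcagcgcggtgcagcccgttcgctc
HNRNPU, chr1:244864544-244864693, minus strand: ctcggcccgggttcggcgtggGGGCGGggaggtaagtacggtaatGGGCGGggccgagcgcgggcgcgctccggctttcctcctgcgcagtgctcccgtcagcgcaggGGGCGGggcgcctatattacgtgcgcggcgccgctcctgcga
The 9 members with an entry have 14 promoters, of which 6 held a CCAAT box and 8 a GC box, beside 23.5% and 36.8% of all 35116 promoters of the same length. The fallen members shared neither motif: HNRNPA0 had both, HNRNPA2B1 the CCAAT box, HNRNPU the GC box and HNRNPM none. The regions are all rich in G and C, at 73.3%, 64.0%, 77.3% and 74.7% for HNRNPA0, HNRNPA2B1, HNRNPM and HNRNPU. Promoters of the members that did not fall had 52.7% (HNRNPC) to 74.7% (HNRNPF), so this trait was not particular to the fallen members.

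Other genes of the family and related RNA-binding proteins were taken as a list of 19, all of which were tested. For mRNA at 72 h, where 2.66% of all tested genes were called decreased and 0.0275% increased, 4 of the 19 fell and 0 rose. Among these were HNRNPH3, a paralog of HNRNPH1 (log2 fold change -1.38, adjusted p = 0.0254), PCBP1, a poly(C)-binding protein (-0.82, adjusted p = 0.0254), and HNRNPUL2, related to HNRNPU (-0.75, adjusted p = 0.0458). The median of the 19 was -0.19, against -0.42 of the members and 0.019 of all tested genes. In translational efficiency at 72 h the same 4 genes were called increased, at 0.79 to 1.34 on the log2 scale. That test takes in the same mRNA libraries, so it is not independent of their lower mRNA. Of all tested genes 0.78% were called increased. In mRNA at 36 h and in footprints at either time point 0 of the 19 passed, and the smallest p belonged to PTBP3 (log2 fold change -0.51) and HNRNPUL1 (0.26) in footprints at 36 h, PCBP2 (-0.14) and HNRNPUL2 (0.13) in mRNA at 36 h, and HNRNPLL (0.25) and HNRNPA3 (0.11) in footprints at 72 h. In translational efficiency at 36 h 0 of the 19 passed, with PTBP3 (-0.60, edgeR adjusted p = 0.785) and PCBP2 (0.28, adjusted p = 0.842) nearest. The mRNA change was lower at 72 h than at 36 h for HNRNPH3 (-1.45, edgeR adjusted p = 0.0383) and PCBP1 (-0.87, adjusted p = 0.0593). Of all tested genes 0.702% were called so. The time difference in footprints passed for 0 of the 19, with PTBP3 (0.54) and HNRNPA3 (0.35) at the smallest p.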

How the data were processed

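The authors deposited counts per transcript of the coding part for each of 17 libraries, made with fp-count. Per the methods, reads of 36 h were aligned with hisat2 against GENCODE 22 and those of 72 h with tophat against GENCODE 25. The submitters' processing notes name HISAT2 2.1.0 and GRCh38. Transcripts were joined to genes by GENCODE 44. At each time point a gene was kept with its transcript of the highest summed count, and tested where its mean count was at least 20 in footprint and in mRNA libraries. Total counts per library were lowest for footprints at 36 h. Cas9 was compared with dCas9 in edgeR 4.0.16 (R 4.3.3), by a two-sided quasi-likelihood test with TMM factors, each library type and time point alone. Translational efficiency and the difference between time points were interaction terms. Benjamini-Hochberg adjustment ran over all tested genes, with a false discovery rate of 0.1. DESeq2 1.42.0, limma 3.58.1 and other settings served as alternatives, and the fits were tested on simulated data. The named genes are the 10 members, JAK2, markers, and, from 19 related genes, those past the threshold or else the 2 with the smallest p. The members and lists were chosen with earlier results of these data known. Replicates were separate plates, and p-values measure the spread between them. The main test of translational efficiency fitted footprint and mRNA libraries as independent, although per the paper each lysate served for both. It also used 1 shared estimate of the spread for both library types. Cas9 footprint replicate b of 36 h was not analysed here. Libraries of the same letter did not deviate together (correlations from -0.139 to 0.081), so the replicate letters were not used as a block in the main test. Where both groups held 2 libraries, both letters gave the same correlation by construction. Printed sequences are RefSeq promoters (GRCh38.p14). Some listed genes and sequences are not reported here.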

Additional observations from a re-analysis of the deposited data

Results flagged for a closer look

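The mRNA change of 3 hnRNP genes differed between the time points by the interaction test in edgeR. The log2 fold change of HNRNPA0, Cas9 over dCas9, was 0.10 at 36 h and -0.84 at 72 h, a difference of -0.95 (adjusted p = 0.0273). That of HNRNPA2B1 was 0.12 and -0.98, a difference of -1.11 (adjusted p = 0.0948). That of HNRNPM was 0.057 and -0.87, a difference of -0.93 (adjusted p = 0.0502). The time points also differ in guide source, aligner and annotation, and these cannot be told apart from time. Groups of 2 or 3 libraries were too small to look for single libraries that stand apart.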

How the results depend on the processing

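No member changed sign in mRNA at 72 h, in translational efficiency at 72 h or in the time difference of mRNA under any alternative run. In mRNA at 72 h, where 5 members and 293 genes were called, DESeq2 size factors in edgeR gave 3 members (185 genes), removal of the GC trend 9 (2685 genes), and the replicate block with the GC trend removed 10 (3566 genes). The 9 were 7 decreased and 2 increased, beside 1432 and 1253 of all 10896 tested genes. The 10 were 8 decreased and 2 increased, beside 1760 and 1806 of all tested genes. The count stayed at 5 members with both library types fitted together (620 genes), with no count minimum (505 genes), with the replicate block (725 genes) and with a crossed pairing of the mRNA replicates, added after seeing the data (829 genes). In translational efficiency at 72 h, 3 members and 87 genes were called. The count was 5 members with no count minimum (275 genes) and with the GC trend removed (593 genes). It was also 5 with the replicate block (89 genes), and with the block and the GC removal together (719 genes). For the time difference of mRNA, 5 members were called with no count minimum (257 genes), against 3 (63 genes). The replicate block changed no other count of members by over 1.5 times. The causes were not tested. Leaving out each library in turn gave 0 to 6 members for mRNA at 72 h, 0 to 6 for translational efficiency at 72 h, 0 to 5 for the time difference of mRNA, 0 to 1 for footprints at 36 h and 0 to 1 for the time difference of footprints. Where this left 1 library in a group, that library was assumed to vary like the other groups. Signs turned only for values that had not passed: HNRNPA1 footprints at 36 h (-0.0037) and HNRNPH1 mRNA at 36 h (-0.0097) with the GC trend removed, HNRNPM (0.0098) and HNRNPU (-0.017) in translational efficiency at 36 h with limma voom, and values that turned as libraries were left out, given here as log2 fold changes. For footprints at 36 h the ranges were HNRNPA1 -0.077 to 0.087, HNRNPA2B1 -0.24 to 0.0078, HNRNPC -0.054 to 0.076, HNRNPF -0.020 to 0.081, HNRNPM -0.043 to 0.12 and HNRNPU -0.019 to 0.17. For mRNA at 36 h the ranges were HNRNPC -0.10 to 0.054, HNRNPD -0.10 to 0.21, HNRNPF -0.10 to 0.039, HNRNPH1 -0.023 to 0.052, HNRNPK -0.018 to 0.064 and HNRNPM -0.016 to 0.13. For footprints at 72 h the ranges were HNRNPA1 -0.027 to 0.11, HNRNPA2B1 -0.0068 to 0.081, HNRNPC -0.052 to 0.080, HNRNPD -0.049 to 0.061, HNRNPF -0.0033 to 0.050, HNRNPH1 -0.11 to 0.072, HNRNPM -0.015 to 0.061 and HNRNPU -0.084 to 0.015. For translational efficiency at 36 h the ranges were HNRNPA1 -0.016 to 0.15, HNRNPC -0.049 to 0.11, HNRNPD -0.00023 to 0.37, HNRNPF -0.0043 to 0.14, HNRNPM -0.10 to 0.058 and HNRNPU -0.063 to 0.13. For the time difference of footprints the ranges were HNRNPA1 -0.046 to 0.12, HNRNPC -0.067 to 0.079, HNRNPF -0.057 to 0.043 and HNRNPM -0.093 to 0.064. Of 620 member fold changes under the other alternatives, 587 kept their direction and side of the threshold, 23 came to pass it, 6 no longer did and 4 reversed in sign. With single libraries left out, 52 of 510 reversed in sign. Depth was lowest in footprints at 36 h.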
